A study of Homo sapiens with 23 samples.

Results

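Chromatin loops at 48 genes that drive or restrain the cell cycle were taken from 2 lists of progesterone receptor HiChIP loops in T47D cells. The genes are 10 cyclins, 5 cyclin-dependent kinases (CDKs), 7 CDK inhibitors, 8 E2F transcription factors, 3 members of the RB family, 3 CDC25 phosphatases, 7 replication genes, 4 mitotic kinase and proliferation genes, and MDM2. A loop belonged to a gene when either of its bins of 5 kb overlapped the gene body widened by 10 kb on each side (hg38). All 48 were found among 19974 protein-coding genes outside chromosome Y. Of these 48, 28 had a listed loop: 10 in both libraries, 7 in T0 alone and 11 in T30 alone. The other 20 had none. Of all protein-coding genes, 17.9% had a loop in both libraries, 9.37% in T0 alone and 14.2% in T30 alone.

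T47D is an established line of human luminal breast cancer cells, known for its high level of progesterone receptor (PR). In HiChIP, DNA ends that touch inside fixed nuclei are ligated and the ligated pieces are pulled down with an antibody, here one to PR, so a listed loop reflects contact and pull-down together. Both groups are T47D cells that the protocols describe as kept in charcoal-stripped serum and then without serum. The library labelled T0 carries no hormone in its labels; the library labelled T30 has a title reading PR5020, taken here as PR and R5020, a synthetic progestin, with neither the dose nor the unit of time given for it. Each condition is 1 library of 1 cell line, so no difference below has a replicate check and none was tested; intervals cover counting error alone. The lists hold 7075 loops with 127457 contacts in T0 and 9591 loops with 135538 contacts in T30, and the depth of either library is unknown. A contact is a read pair that joins 2 bins. The largest p-value listed was 0.000233 in T0 and 2.84e-05 in T30, and T30 held no loop shorter than 20 kb, so a loop missing from a list may lie below its threshold. Of the luminal breast genes GATA3, FOXA1, KRT8, KRT18, KRT19, ESR1, PGR, ELF3, SPDEF and EPCAM, 8 of 10 were at a T0 loop and 7 at a T30 loop. Of the basal or mesenchymal genes KRT5, KRT14, TP63, VIM and ZEB1, 3 of 5 were at a T0 loop and 1 at a T30 loop. In T0 the exact 95% intervals were 44.4 to 97.5% for the luminal and 14.7 to 94.7% for the basal or mesenchymal genes. In T30 they were 34.8 to 93.3% and 0.505 to 71.6%. The intervals of the 2 gene lists overlap in each library. Of all protein-coding genes, 27.3% were at a T0 loop and 32.2% at a T30 loop. ESR1 and PGR, the receptor genes themselves, had none, and loops do not measure expression.

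Cyclins bind CDKs and switch them on at set points of the cycle, and CDK inhibitors hold them back. Active CDKs phosphorylate the RB proteins, which releases E2F factors to turn on replication genes; CDC25 phosphatases, Aurora kinases and PLK1 then act at the entry into and passage through mitosis. In breast cancer cells progestins are known to push cells through a cycle and then to arrest them, with changes in cyclins and CDK inhibitors.

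In T0, 17 of the 48 genes had a listed loop (35.4%, exact 95% interval 22.2 to 50.5), against 27.3% of all protein-coding genes. In T30 the number was 21 (43.8%, 29.5 to 58.8), against 32.2%. Both background shares lie inside the intervals, so the list stood apart from other genes by no more than its counting error. The 10 genes in both libraries were CCND3, CCNE2, CDKN1A, CDKN2D, E2F2, E2F3, E2F5, E2F6, CDC25C and PCNA, or 10 of 48 where 17.9% of all genes qualified. T0 alone listed CDK2, CDK6, CDKN2A, CDKN2B, RBL1, MCM7 and AURKB (background 9.37%). T30 alone listed CCNG2, CDK1, CDK7, CDKN1C, E2F1, E2F4, CDC25B, MCM3, MCM5, MKI67 and MDM2 (background 14.2%). With both lists held to the same length by lowest q-value, each had 17 of the 48 genes. The genes were shorter than most, with a median length of 19.5 kb against 24.2 kb for all genes, which bears on how many bins can touch them.

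**Figure D1:**
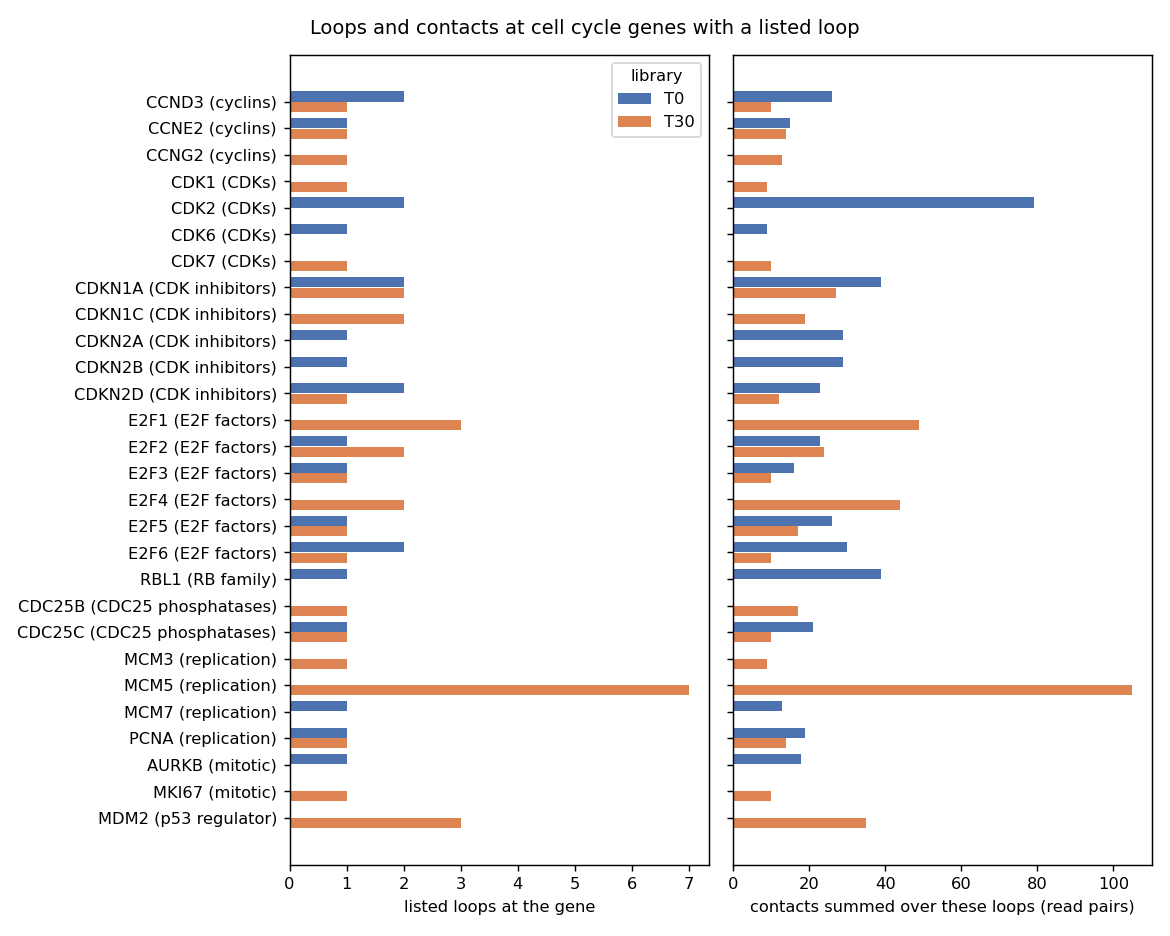
Listed loops (left) and contacts summed over these loops in read pairs (right) at each of the 28 cell cycle genes with a loop, with T0 in blue and T30 in orange and 1 library per bar. MCM5 has 7 loops and 105 contacts in T30 and none listed in T0, and CDK2 has 79 contacts in T0 and none listed in T30.

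These genes had 21 distinct loops with 425 contacts in T0 and 35 with 468 in T30. Their partners, counted as distinct 5 kb bins at the other side of a gene's loops, numbered 27 in T0 and 38 in T30 when summed over genes. By gene, 13 of 48 had more partners in T30 (background 21.4%), 10 had fewer (background 15.0%) and 25 had equal numbers. The median change was 0 among these genes and 0 among all genes, and the mean change was 0.229 partners a gene against 0.202. MCM5 alone supplied 8 of the net 11 partners, and the sum without it was 3. At start-site bins the summed change was 0. It was 7 with loops of at least 10 contacts, 3 with lists of equal length, 19 with loops of at least 20 kb in both lists and 24 when both lists were held to the smaller of their largest p-values. Genes with a loop had a median of 1 partner in each library, where all genes with a loop had 2, and no gene of the 48 exceeded 3 partners in T0 or 8 in T30. Across all genes the most partners were 53 and 86, far above any of the 48. MCM5, with 7 loops in T30, was still unusual, since 2.17% of all genes had 7 or more.

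Start sites placed the loops within the genes. RefSeq promoter windows, from 250 bases before to 50 after a start site (GRCh38.p14), were matched by symbol for 39 of the 48 genes; AURKA, CCND2, CCNE2, CDK2, CDKN1C, E2F5, E2F8, MCM4 and MCM5 had no entry. In 14 of the 39 the bin of a start site was a loop end: CCND3, CDC25B, CDK6, CDKN1A, CDKN2A, CDKN2B, CDKN2D, E2F1, E2F2, E2F3, E2F4, MDM2, PCNA and RBL1 (35.9%, exact interval 21.2 to 52.8), against 16.1% of the 15812 protein-coding genes with a window. The 39 genes had a mean of 1.62 listed starts and all genes 1.40, and more starts give more bins that could be a loop end. The windows below are those of the 6 genes with most loops at such a bin, ties taken in order of symbol, so that the sequence at the loop end can be read. E2F1 was added after its values were seen. One start is shown for each gene: of the starts in a loop bin, the one with most loops there and, in a tie, the lower coordinate. CCND3 has a further start in a bin at a T0 loop end, and E2F3 has a further start in the same loop bin; neither is printed. Capitals mark matches, on either strand, to the E2F-like motif TTTNNCGC, the cell cycle homology region TTTGAA, the CCAAT box, the core ACANNNTGT of a progesterone receptor element, or the TGTTCT arm of that element; overlapping matches run together.
CDKN2D promoter, chr19:10568930-10569229, minus strand: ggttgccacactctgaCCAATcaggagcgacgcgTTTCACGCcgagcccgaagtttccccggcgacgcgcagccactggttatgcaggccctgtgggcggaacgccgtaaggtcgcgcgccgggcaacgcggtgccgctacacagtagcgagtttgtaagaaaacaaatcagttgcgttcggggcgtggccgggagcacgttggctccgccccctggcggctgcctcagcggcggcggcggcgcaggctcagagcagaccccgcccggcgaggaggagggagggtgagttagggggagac
E2F3 promoter, chr6:20401629-20401928, plus strand: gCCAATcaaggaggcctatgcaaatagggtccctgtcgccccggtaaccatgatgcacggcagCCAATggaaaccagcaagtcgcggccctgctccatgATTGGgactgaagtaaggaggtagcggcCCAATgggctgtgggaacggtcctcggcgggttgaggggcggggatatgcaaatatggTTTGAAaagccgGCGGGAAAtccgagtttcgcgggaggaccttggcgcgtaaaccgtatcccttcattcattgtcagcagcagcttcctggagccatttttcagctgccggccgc
CCND3 promoter, chr6:41941759-41942058, minus strand: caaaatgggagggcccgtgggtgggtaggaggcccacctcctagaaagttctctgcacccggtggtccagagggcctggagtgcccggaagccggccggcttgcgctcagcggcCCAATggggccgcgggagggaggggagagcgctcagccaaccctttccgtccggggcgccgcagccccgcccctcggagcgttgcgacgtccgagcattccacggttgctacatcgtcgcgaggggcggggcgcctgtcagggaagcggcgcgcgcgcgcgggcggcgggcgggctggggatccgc
CDC25B promoter, chr20:3786701-3787000, plus strand: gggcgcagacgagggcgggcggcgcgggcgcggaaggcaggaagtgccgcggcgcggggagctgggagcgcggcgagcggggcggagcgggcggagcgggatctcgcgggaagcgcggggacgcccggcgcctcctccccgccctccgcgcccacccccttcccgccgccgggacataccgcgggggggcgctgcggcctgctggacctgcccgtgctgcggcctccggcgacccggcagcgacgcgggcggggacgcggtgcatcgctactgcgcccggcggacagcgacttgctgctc
CDK6 promoter, chr7:92833910-92834209, minus strand: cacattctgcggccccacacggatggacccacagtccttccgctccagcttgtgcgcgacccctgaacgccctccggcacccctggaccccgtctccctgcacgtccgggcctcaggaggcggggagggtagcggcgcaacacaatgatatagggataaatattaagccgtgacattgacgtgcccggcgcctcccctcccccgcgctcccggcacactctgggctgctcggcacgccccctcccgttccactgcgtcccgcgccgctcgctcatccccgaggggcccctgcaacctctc
CDKN1A promoter, chr6:36678464-36678763, plus strand: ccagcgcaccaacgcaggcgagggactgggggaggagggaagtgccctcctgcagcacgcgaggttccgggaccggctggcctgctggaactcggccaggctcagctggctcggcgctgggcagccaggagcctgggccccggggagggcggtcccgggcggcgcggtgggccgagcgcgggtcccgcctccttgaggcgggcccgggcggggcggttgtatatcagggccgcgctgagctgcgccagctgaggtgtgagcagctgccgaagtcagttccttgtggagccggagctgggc
E2F1 promoter, chr20:33686336-33686635, minus strand: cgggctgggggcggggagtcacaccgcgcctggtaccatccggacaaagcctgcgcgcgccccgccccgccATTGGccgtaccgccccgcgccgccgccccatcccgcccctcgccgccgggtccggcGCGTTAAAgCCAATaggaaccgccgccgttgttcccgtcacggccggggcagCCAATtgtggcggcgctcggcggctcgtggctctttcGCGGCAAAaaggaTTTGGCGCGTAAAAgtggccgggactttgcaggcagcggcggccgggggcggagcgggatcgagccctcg

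The CDKN2D window held 1 E2F-like motif and 1 CCAAT box, E2F3 held 1 E2F-like motif, 1 TTTGAA and 4 CCAAT boxes, and E2F1 held 4 E2F-like motifs and 3 CCAAT boxes. CCND3 held 1 CCAAT box. The CDC25B, CDK6 and CDKN1A windows held no match to any of the 5 motifs. Over the first listed start of each gene, the E2F-like motif was in 14 of 39 windows (35.9%), and in 8.87% of 15812 windows of protein-coding genes. TTTGAA was in 6 of 39 (15.4%, all windows 12.1%) and CCAAT in 19 of 39 (48.7%, all windows 36.3%). The progesterone receptor core was in 2 of 39, CDKN2C and CCNG1 (5.13%, all windows 3.72%), and its TGTTCT arm in 4 of 39 (10.3%, all windows 11.2%). Among the 14 genes with a start-site bin at a loop end, 7 held the E2F-like motif and none held either progesterone receptor motif in these windows. Median GC content was 64.7% in the 39 windows and 62.7% in all. These matches describe the letters and not sites in use.

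Cyclins had a loop at 2 of 10 genes in T0 (20%) and 3 in T30 (30%), with 3 loops in each library. CCND3, the D-type cyclin that pairs with CDK4 and CDK6, had 2 loops with 14 and 12 contacts in T0. The 14-contact loop ran 120 kb from the bin at 41920001, which holds MED20 and BYSL, to the one at 42040001 inside CCND3 on chromosome 6. The other, of 260 kb, was the longest T0 loop of the 48 genes and joined the CCND3 start-site bin at 42045001 to the bin at 41785001, which holds PRICKLE4, TOMM6 and USP49. In T30 a loop of 10 contacts and 100 kb lay within CCND3, from a downstream start at 41940001 to the same bin at 42040001. CCNE2, the E-type cyclin of entry into S phase, had a loop of 15 contacts and 125 kb in T0 and one of 14 contacts and 40 kb in T30, with NDUFAF6, a mitochondrial assembly factor gene, at both ends in both. CCNG2, a cyclin linked to growth arrest, had 1 loop in T30, of 13 contacts and 40 kb, which ended 7.21 kb from the gene and joined bins with no protein-coding gene. CCND2, CCNE1, CCNA1, CCNA2, CCNB1, CCNB2 and CCNG1 had none in either library.

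Among the CDKs, 2 of 5 had a loop in each library, and they were different genes. CDK2, the partner of cyclins E and A, had 79 contacts in T0 (exact 95% Poisson interval 62.5 to 98.5) over 2 loops. One spanned 10 kb with 54 contacts, the most of any of these loops in T0, yet a q-value of 0.0471. The other ran 40 kb to the bin at 55925001 on chromosome 12, which holds PYM1 and DGKA, with 25 contacts (q 0.00712). Both met in the bin at 55965001, which overlaps CDK2 and its neighbour PMEL, a melanosome gene. CDK6 had 1 loop in T0, of 9 contacts and 210 kb, which joined the interior of the gene at 92620001 to the start-site bin at 92830001 on chromosome 7. In T30 CDK1, the mitotic CDK, had a loop of 9 contacts and 330 kb from a bin 3.33 kb from the gene to ANK3, an ankyrin gene. CDK7, the kinase that activates other CDKs, had a loop of 10 contacts and 145 kb to SLC30A5, a zinc transporter gene. The nearest T30 loop end lay 17.2 kb from CDK2 and 965 kb from CDK6. CDK4, the partner of D-type cyclins, had none, with the nearest ends at 37.7 kb in T0 and 17.7 kb in T30.

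CDK inhibitors had a loop at 4 of 7 genes in T0 and 3 of 7 in T30. CDKN1A, which encodes p21, was the one with 2 loops in each. In T0 the loops ran from the bin at 36620001 upstream of the gene on chromosome 6 to the gene body at 36680001 (22 contacts, 60 kb) and to 36695001 past the gene (17 contacts, 75 kb). In T30 they ran from 36630001 to the start-site bin at 36675001 (13 contacts, 45 kb) and from 36640001 to 36670001 (14 contacts, 30 kb). The upstream ends lay in no protein-coding gene. No loop at CDKN1A had the same bins in the 2 libraries, and the closest pair was offset by 10 kb at one end and 5 kb at the other.

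CDKN2D, which encodes p19, had its start-site bin at 10565001 on chromosome 19 as a loop end in both libraries. That bin was joined to KEAP1, an adaptor of the oxidative stress response (12 contacts, 75 kb), and to 10645001 (11 contacts, 80 kb) in T0, and to 10520001 in T30 (12 contacts, 45 kb). KRI1 overlaps the same bin. CDKN2A and CDKN2B, neighbours on chromosome 9 that encode p16, p14ARF and p15, shared 1 loop in T0 of 29 contacts and 10 kb, from the bin at 21995001 to the one at 22005001. It joined a start site of each gene and was the sole loop to join 2 of the 48 genes. The T30 list holds no loop of 10 kb, and its nearest ends were 895 kb and 881 kb away. CDKN1C, which encodes p57, had 2 loops in T30 alone. They were the longest among the 48 genes, at 475 kb to TRPM5 (9 contacts) and 355 kb to KCNQ1 (10 contacts), both ion channel genes. The near end of the longer one lay in SLC67A1, beside CDKN1C. CDKN1B and CDKN2C had none.

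E2F factors had a loop at 4 of 8 genes in T0 (50%, exact interval 15.7 to 84.3) and 6 of 8 in T30 (75%, 34.9 to 96.8). Their loops numbered 5 with 95 contacts in T0 and 10 with 154 in T30. The T30 share alone has an interval above the background of 32.2%, in 1 of 9 classes read in 2 libraries. E2F1, the activator first found in this family, had 3 loops in T30 with 17, 17 and 15 contacts and none in T0. They left the bins at 33680001 and 33685001 on chromosome 20, the second of which holds the start site, and reached PXMP4, a peroxisomal membrane protein gene, and ZNF341 within 45 kb. The nearest T0 loop end was 174 kb from E2F1. Apart from its own loops, the list held 7 within 1 Mb of E2F1 in T0 and 26 in T30, so the surrounding region moved the same way. E2F4, a repressor that acts with the RB family, had 2 loops in T30 from the bin of NOL3 at 67170001 on chromosome 16. One reached its start-site bin, shared with EXOC3L1, at 20 kb with 29 contacts, the most of any T30 loop at the 48 genes, and the other ended past the gene at 35 kb with 15. Other loops within 1 Mb of E2F4 numbered 3 and 16.

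E2F6, a repressor of the family, was joined to GREB1 in both libraries. GREB1 is a growth regulator known for its response to steroid hormones. From the bin at 11475001 on chromosome 2, next to E2F6 and in no gene, T0 listed loops of 14 contacts to 11555001 and 16 contacts to 11580001, and T30 listed 1 of 10 contacts to 11560001. All 3 far ends lie in GREB1. A further T30 loop of 13 contacts between 11480001 and 11570001 starts 1 bin outside the window used for E2F6. E2F2, an activator, had the only loop with identical bins in both lists among these genes, of 95 kb from 23540001 to 23635001 on chromosome 1, with 23 contacts in T0 and 10 in T30. Neither bin of that loop holds a protein-coding gene, and the near one lies 8.77 kb from E2F2. T30 added a loop of 14 contacts and 35 kb at its start-site bin. E2F3, the other activator, used its start-site bin at 20400001 on chromosome 6 in both libraries, but with partners on opposite sides. In T0 it met 20525001 (16 contacts, 125 kb) and in T30 it met 20290001 (10 contacts, 110 kb). E2F5 had 1 loop in each library, from a shared bin in the neighbouring gene RBIS, of 26 contacts and 65 kb in T0 and 17 contacts and 25 kb in T30. The repressors E2F7 and E2F8 had none.

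**Figure D2:**
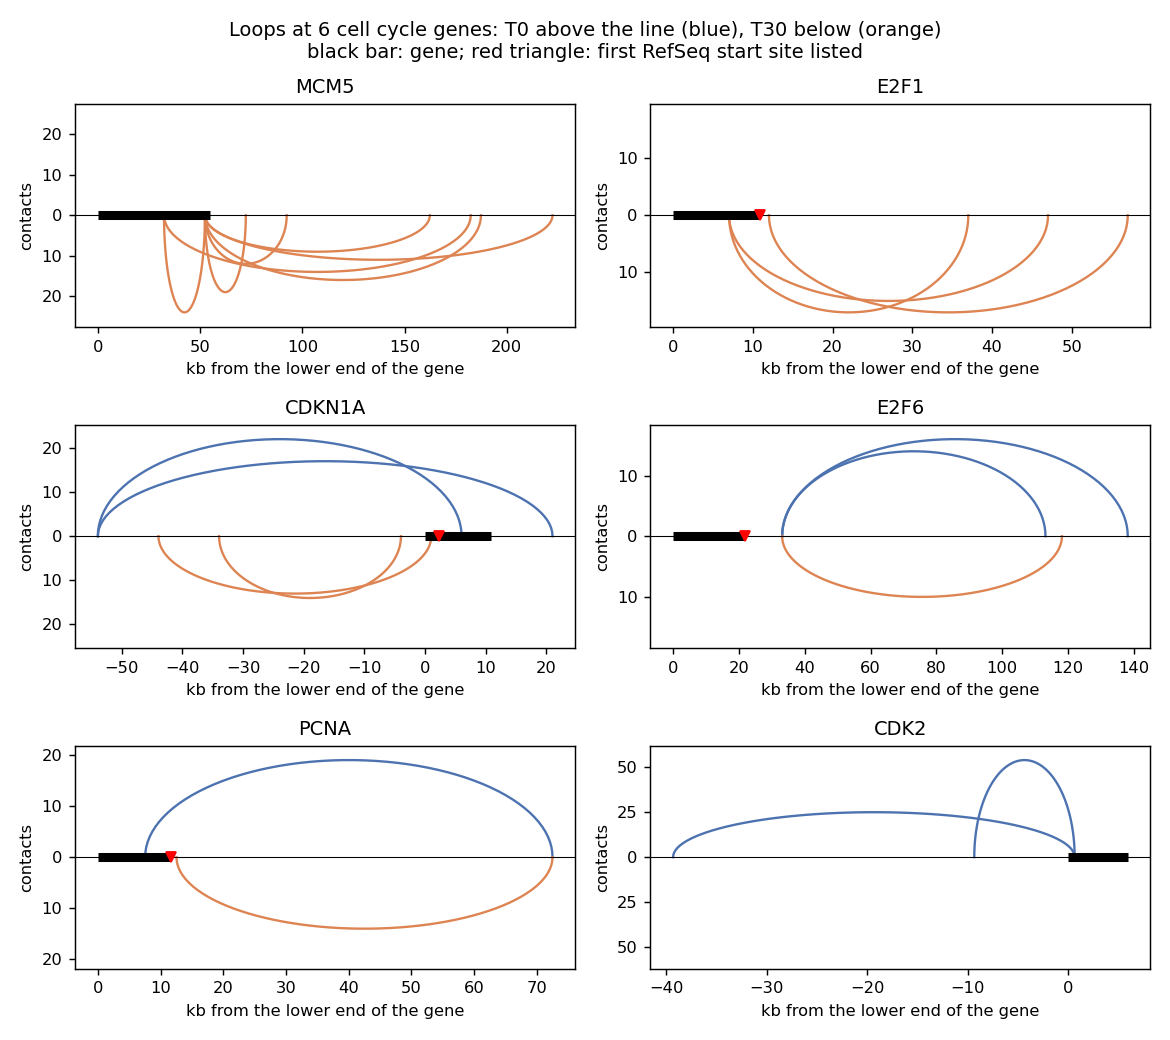
Loops at MCM5, E2F1, CDKN1A, E2F6, PCNA and CDK2, chosen after their values were seen, drawn as arcs whose feet are the centres of the 2 bins (x axis, kb from the lower end of the gene) and whose height is the contacts in read pairs, T0 above the line and T30 below. PCNA and E2F6 keep a similar arc in both libraries, MCM5 and E2F1 have arcs in T30 alone, and CDK2 has arcs in T0 alone.

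Of the RB family, RBL1, which encodes p107, had 1 loop in T0, of 39 contacts and 10 kb, between 37085001 and its start-site bin at 37095001 on chromosome 20 (q 0.0173). RB1 and RBL2 had none in either library, and the nearest ends to RB1 were 1574 kb away in T0 and 5189 kb in T30. In the CDC25 group, phosphatases that remove the inhibitory mark from CDKs, CDC25C had a loop in both libraries. It ran from 138215001 to 138280001 on chromosome 5 in T0 (21 contacts, 65 kb) and from 138220001 to 138290001 in T30 (10 contacts, 70 kb). CDC25B had 1 loop in T30, of 17 contacts and 30 kb, from its start-site bin, shared with the centromere protein gene CENPB, to the bin at 3815001 on chromosome 20 past the gene. CDC25A had none, although a T0 loop end lay 11.6 kb from it, just outside the window.

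Among replication genes, MCM5, a subunit of the MCM2-7 helicase that unwinds DNA, differed most between the libraries. It had 7 loops and 8 partners in T30, with 105 contacts (exact 95% Poisson interval 85.9 to 127) over these loops, and none in T0. Its loops had 24, 19, 16, 14, 12, 11 and 9 contacts. The bin at 35450001 on chromosome 22, at the upper end of the gene (35400140 to 35455031), took part in 6 of the 7. It was joined to 35430001 within MCM5 and to 35470001, 35490001, 35560001, 35585001 and 35620001 beyond it. The last holds MB, the myoglobin gene, and the others lie in no protein-coding gene. The seventh loop ran from 35430001 to 35580001. The nearest T0 loop end was 35.1 kb from MCM5, and other loops within 1 Mb numbered 1 in T0 and 2 in T30. A gain of 8 or more partners was found at 0.596% of all genes, and 7 or more loops in T30 at 2.17%.

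PCNA, the sliding clamp of DNA polymerases, had a similar loop in both libraries, from 5120001 in T0 (19 contacts) and from the start-site bin at 5125001 in T30 (14 contacts) to the same bin at 5185001 on chromosome 20. CDS2, a lipid synthesis gene, lies at that far end and also overlaps the T30 bin at 5125001, so it lies at both ends of the T30 loop. MCM7 had 1 loop in T0, of 13 contacts and 90 kb, whose near end lay in ZNF3. MCM3 had 1 loop in T30, of 9 contacts and 115 kb, from the bin beside the gene to PAQR8, which encodes a membrane progestin receptor. MCM2, MCM4 and MCM6 had none. In the mitotic group, AURKB had 1 loop in T0 (18 contacts, 25 kb) whose near end lay in CTC1, a telomere maintenance gene, 9.43 kb from AURKB. MKI67, the gene of the proliferation antigen Ki-67, had 1 loop in T30 (10 contacts, 65 kb) with its near end in PTPRE. AURKA and PLK1 had none. MDM2, the ligase that degrades p53, had 3 loops in T30, of 17, 9 and 9 contacts, and none in T0. The 17-contact loop joined its start-site bin at 68805001 on chromosome 12 to SLC35E3 at 35 kb. The other 2, of 255 kb and 195 kb, left bins that hold CPM, a carboxypeptidase gene, and other loops within 1 Mb numbered 10 in T0 and 9 in T30.

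**Figure D3:**
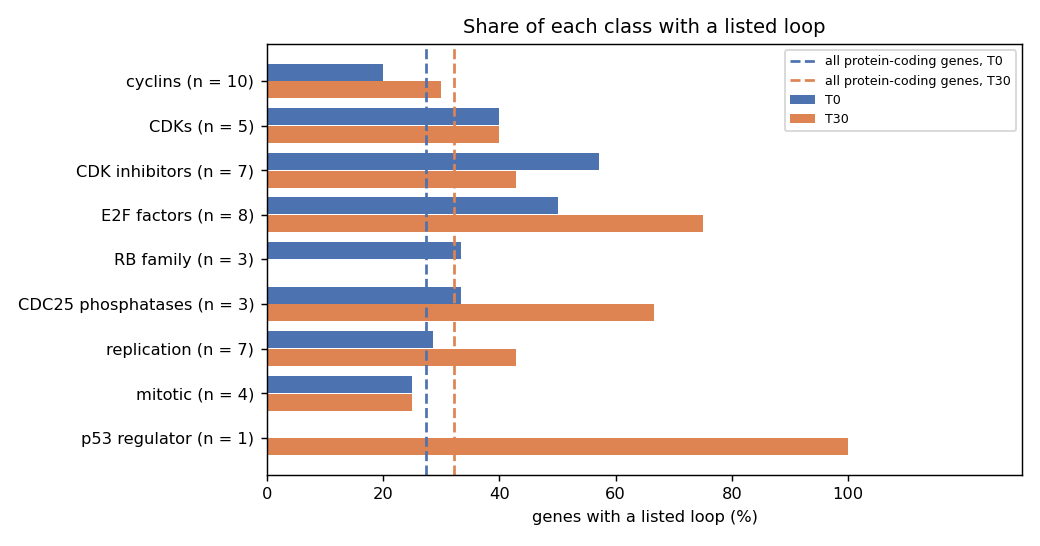
Share of each class of cell cycle genes with a listed loop (x axis, percent), T0 in blue and T30 in orange, with dashed lines at the share of all protein-coding genes (27.3% and 32.2%). Classes hold 1 to 10 genes; E2F factors reach 75% in T30, MDM2 is the p53 regulator (n = 1), and the RB family 33.3% in T0 and 0% in T30.

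Loops at these genes were shorter than most in the T0 list. Their median span was 75 kb (order-statistic 95% interval 60 to 105) where all T0 loops had 190 kb and T0 loops at any protein-coding gene had 185 kb. Of the 21, 6 were longer than 100 kb (28.6%, exact interval 11.3 to 52.2), against 72% of all T0 loops and 70.9% of those at any gene. In T30 the median was 60 kb (40 to 110), against 80 kb for all loops, and 12 of 35 were longer than 100 kb (34.3%, 19.1 to 52.2), against 40.9%. T30 listed 17 of its 35 loops at 20 to 50 kb, at 11 genes, where T0 listed 2 of 21, at 2 genes. All T30 loops had 35% in that range and all T0 loops 6.13%, so the lists as a whole differed in the same direction. Whether the difference at these genes goes beyond that of the lists was not tested. Loops share ends and regions, so these intervals may be too narrow.

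**Figure D4:**
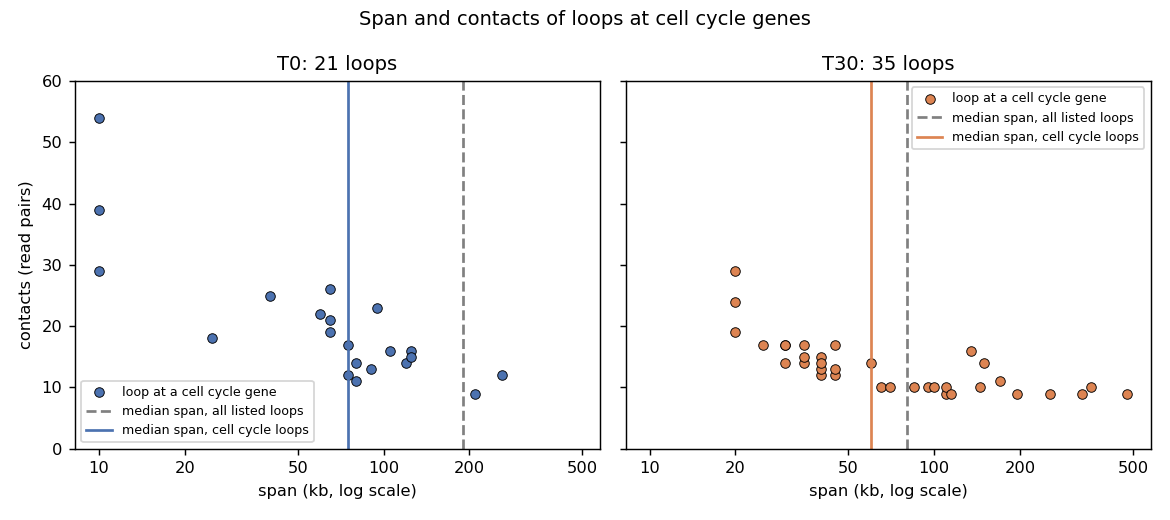
Contacts in read pairs (y axis) against span in kb (x axis, log scale) of each loop at the cell cycle genes, T0 left and T30 right, with the median span of these loops (solid line) and of all listed loops (dashed line). The solid lines stand at 75 and 60 kb and the dashed lines at 190 and 80 kb, and the 3 loops with most contacts in T0 all span 10 kb.

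Median contacts a loop were 17 in T0 (order-statistic 95% interval 14 to 23) and 13 in T30 (10 to 14), against 14 and 13 over all loops. By class, the T0 median was highest for the single RBL1 loop at 39, followed by CDKs at 25 and CDC25C at 21, and lowest for cyclins at 14; E2F factors had 16, CDK inhibitors 17, replication genes 16 and AURKB 18. In T30 it ran from 15 for E2F factors, 14 for replication genes, 13.5 for CDC25 phosphatases, 13 for cyclins and 12 for CDK inhibitors to 10 for MKI67, 9.5 for CDKs and 9 for MDM2. The loops of most contacts in T0 were those of 10 kb at CDK2, RBL1 and the pair CDKN2A and CDKN2B. With loops of at least 20 kb in both lists, 14 of the 48 genes had one in T0 (background 25.1%) and 21 in T30 (background 32.2%), since 3 genes had nothing else in T0. At the smaller of the largest p-values, 9 of the 21 T0 loops would not have been listed, against 2805 of all 7075 T0 loops. At that limit 12 genes would have had a loop in T0, without a background share to set beside them.

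Most loops were not found again between the libraries, at these genes or over the whole lists. Ends were matched by overlap of the cluster ranges that the authors merged. By that rule 2 pairs lay at these genes, of 21 loops in T0 and 35 in T30. The whole lists gave 1389 pairs, of 7075 loops in T0 and 9591 in T30. The E2F2 pair had 23 contacts in T0 and 10 in T30, a ratio of 0.435 (exact binomial 95% interval 0.185 to 0.95). The PCNA pair had 19 and 14, a ratio of 0.737 (0.342 to 1.55). The median ratio over all pairs was 0.667, which lies inside both intervals. With both bins within 10 kb (chosen with the data in view), 5 pairs had both loops at these genes, 1 each at E2F2, E2F6, PCNA, CDC25C and CDKN1A. Each of the 5 had fewer contacts in T30, with a median ratio of 0.591, against 0.667 over all pairs found by that rule. Another E2F6 pair, of 16 and 13 contacts, has its T30 loop just outside the window used; with it the median was 0.653. At the 10 genes with a loop in both libraries, the closest loops were compared lower end with lower end and upper end with upper end. Both ends lay within 10 kb at 5 genes, 1 end at 4 (CCND3, CCNE2, CDKN2D and E2F5) and neither at E2F3. The E2F3 loops still share the bin at 20400001, which is the lower end in T0 and the upper end in T30.

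A bin at or beside these genes often held another gene, so a loop cannot be assigned to the cell cycle gene alone. Here loops were counted once per gene. An end in the gene's widened window overlapped another protein-coding gene in 13 of 22 in T0 and 11 of 35 in T30. This count includes ends in the flank that do not touch the cell cycle gene itself. An end at the gene lay in its flank alone in 8 of 21 loops in T0 and 12 of 35 in T30. The bin of a listed start site was an end of 7 of 21 loops in T0 and 10 of 35 in T30. Loops at genes without a listed start could not count there. With gene ends used for those genes, the numbers were 10 in T0 and 11 in T30. Far ends outside the gene lay in no protein-coding gene in 8 of 16 loops and 15 of 31. Surrounding loops varied too: of the 11 genes with a loop in T30 alone, other loops within 1 Mb were more numerous in T30 at 6, less so at 4 and level at 1. Of the 7 with a loop in T0 alone, 4 had more in T30 and 3 had fewer. The part of regional differences in these results was not tested.

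A list of 54 further cell cycle genes had 15 with a loop in T0 (27.8%, exact interval 16.5 to 41.6) and 16 in T30 (29.6%, 18.0 to 43.6), 9 of them in both, against 27.3%, 32.2% and 17.9% of all protein-coding genes. Partners were more numerous in T30 at 11 of the 54 (21.4% of all genes), fewer at 9 (15.0% of all genes) and level at 34, and their sum went from 45 to 47. GINS2, a subunit of the replicative helicase complex, was joined to 11 partners in T0 and 19 in T30, over 15 T0 loops (519 contacts) and 23 T30 loops (404 contacts). CDC6, which loads the helicase, had 5 and 6 loops with 161 and 83 contacts, and CDT1, its partner in loading, had 3 and 5 loops with 63 and 75 contacts. CCND1, the cyclin D1 gene, had 6 and 3 loops with 68 and 73 contacts. CCNF, a cyclin that serves in a ubiquitin ligase, had 5 loops and 6 partners in T0 and none in T30. GINS4 had 4 loops in T30 with 65 contacts and none in T0, and TOP2A, a DNA topoisomerase gene, had 4 partners in T0 and 1 in T30. Next towards T0, with 2 fewer partners each, were CCND1, MCM10 and RRM1.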

How the data were processed

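Loops were measured by HiChIP against PR in 1 T47D library labelled T0 and 1 labelled T30, of the 23 samples of the series; the other samples were not analysed here. The deposited lists give, for each bin pair, a raw count of read pairs (contacts). They also give a p-value and a q-value that the authors computed with a correction for bias, as column names in the deposited lists say, and stop at a q-value of 0.05. The labels name FitHiC for the loop calls. Neighbouring contacts had been merged into clusters, and a deposited fraction describing each cluster played no role here. Bowtie, hg38 and GRCh38 are named in the submitters' processing notes, whereas other loop-call settings and pooling were not given in the sources used here.

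Genes came from a RefSeq table of GRCh38.p14 and start sites from RefSeq promoter windows. Loops, partners, spans and contacts were counted per gene and class, over all protein-coding genes for the background. Pairing of T0 with T30 loops required cluster ranges to overlap by 1 bp or more at each of the 2 ends, with each loop used once and the closest taken first. Shares have exact (Clopper-Pearson) 95% intervals, summed contacts exact Poisson ones, contact ratios exact binomial ones, and medians order-statistic ones; read pairs need not be independent molecules. With 1 library per condition no test was made. Counting and pairing were tested on simulated loops. The alternatives were q under 0.01, at least 10 contacts, a span of at least 20 kb, lists of equal length, genes not widened or widened by 2.5 kb, start-site bins (gene ends where no start was listed), cluster ranges in place of bins, identical bins and scaled contacts. Leaving out MCM5, a common p-value limit and pairing within 10 kb were added after the data were seen. The 48 genes and the lists were chosen with earlier results of these data known. The text names every gene of the 48, its loops of most contacts and greatest span, the 5 further cell cycle genes with most loops and the 3 with the largest change of partners each way. Scripts ran in Python 3.11.15 with scipy 1.17.1, pandas 2.3.3, numpy 2.4.6 and, for plots, matplotlib 3.10.9.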

Additional observations from a re-analysis of the deposited data

How the results depend on the processing

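Of 94 recomputed values, 76 stayed within 1.5 times the reported count or inside the interval of the reported median or ratio, and 18 moved. None changed sign, though only the summed change in partners could have. Some values could not move. The T30 list has no loop under 20 kb or above the common p-value limit, and equal length leaves the T0 list whole. Genes with a loop moved from 17 to 11 in T0 when genes were not widened and to 9 at start-site bins, and from 21 to 13 in T30 at q under 0.01 and to 11 at start-site bins. Distinct loops in T0 moved from 21 to 12 at q under 0.01, 13 at genes not widened, 10 at start-site bins and 12 at the common p-value limit. In T30 they moved from 35 to 19 at q under 0.01, 23 at genes not widened and 11 at start-site bins. Median contacts in T30 moved from 13 to 15 at q under 0.01. The summed change of 11 partners was 7 with at least 10 contacts, 19 at 20 kb or more, 3 with lists of equal length, 0 at start-site bins, 24 at the common p-value limit and 3 without MCM5. Stricter settings keep fewer loops by construction; the cause was not tested otherwise. Median spans stayed inside their intervals under every alternative run. The contact ratio here is the median over matched pairs at these genes, 0.586 as first computed. It stayed inside the exact binomial interval of the pooled contacts of those pairs, 0.331 to 0.966, under every alternative run. The ratio rests on 2 pairs, and on 1 pair at q under 0.01, at genes not widened or widened by 2.5 kb, at start-site bins and with identical bins. Depth is unknown, and loops under the authors' threshold are not listed. No paired analysis was possible because each condition has 1 library.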

Other observations

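The 20 cell cycle genes without a loop differed in how far they lay from one. Their nearest listed loop end was 11.6 to 4656 kb away in T0, with a median of 692 kb, and 17.7 to 6741 kb away in T30, with a median of 319 kb. Within 50 kb of the gene, 4 of the 20 were near an end in T0 and 4 in T30. CDC25A (11.6 kb), MCM6 (18.6 kb) and CCNB2 (24.96 kb) were nearest in T0, and CDK4 (17.7 kb), CCNB2 (35.0 kb) and AURKA (39.4 kb) in T30. CCNA2, which had an end 771 kb away in T0, had the most distant one in T30, at 6741 kb. CCND2, CDKN1B, CDKN2C and RB1 had no listed loop within 1 Mb in either library. Median gene length was 18.7 kb for the 20 and 19.9 kb for the 28 with a loop.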
